A study of Homo sapiens with 18 samples.

Results

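Genomic regions captured by an antibody against methylated cytosine were examined where they lay at the start of a protein-coding gene in K562 cells, an established human leukaemia line of erythroid and myeloid character. A region was kept when it lay on chromosomes 1 to 22 and overlapped the window from 1 kb before to 1 kb after the annotated start of a gene, taken as the 5′ end of the gene in GENCODE on GRCh37 (hg19). Of the 198884 regions counted in the study, 3918 met this rule, or 1.97%. They lay at the starts of 3977 of 19229 genes, or 20.7%, and 3743 of those genes were matched by name to the RNA table. The other 187770 regions on the same chromosomes served for comparison.

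Both assays, MeDIP-seq and RNA-seq, were run on 3 groups of 3 libraries. All groups were K562 cells with a B2M:tdTomato transgene, a red fluorescent protein joined to B2M. One group was untreated, another was labelled TALE silenced and the third dCas9 silenced. The cells of both treatments had received 3 plasmids together, which code for 3 repressors, among them a D3A-based one (1 µg of plasmid), and dCas9 cells also received 250 ng of a plasmid for the guide RNA. A TALE binds DNA through its own repeats and dCas9, a Cas9 that does not cut, through a guide RNA. Both were aimed at the promoter of B2M. The labels did not give the time after treatment, whether a group came from 1 clone, or whether its 3 libraries came from separate cultures. Contrasts called silenced set the average of both treated groups against untreated cells.

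Promoters of vertebrate genes fall broadly into those within CpG islands, which are usually free of methylation whatever the activity of the gene, and those poor in CpG, which are often methylated. Dense methylation over the start of a CpG-rich gene goes with stable silence, as at germline genes in body cells, at imprinted genes on one parental copy and at tumour suppressors in cancer. MeDIP captures DNA fragments in proportion to how many methylated cytosines they carry, so its level rises with CpG density as well as with methylation and with the number of copies of the locus.

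Sequences at 3 of the regions are shown to make their CpG density visible, at the targeted promoter, an imprinted gene and a germline gene. They were read from GRCh37 on the strand of the gene, 5′ to 3′, with each CG dinucleotide in capitals, and stretches inside untranslated exon sequence were left out. B2M, the light chain of MHC class I and the target of the study, is shown at chr15:45003639-45003684 (+), an intronic stretch of its 317-bp region just before the start of the canonical transcript. DLK1, an imprinted growth regulator, is shown at chr14:101192373-101192672 (+), in an intron of the annotated gene. SYCP3, a protein of the meiotic synaptonemal complex, is shown at chr12:102132745-102133044 (-), downstream of its start.
B2M: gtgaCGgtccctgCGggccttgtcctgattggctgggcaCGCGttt
DLK1: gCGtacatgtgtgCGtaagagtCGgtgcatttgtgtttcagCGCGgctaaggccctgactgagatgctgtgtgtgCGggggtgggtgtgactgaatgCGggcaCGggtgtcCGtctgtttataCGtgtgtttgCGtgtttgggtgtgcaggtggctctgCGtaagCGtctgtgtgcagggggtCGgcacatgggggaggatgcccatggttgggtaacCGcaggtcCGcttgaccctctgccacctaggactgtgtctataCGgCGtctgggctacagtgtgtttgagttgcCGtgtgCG
SYCP3: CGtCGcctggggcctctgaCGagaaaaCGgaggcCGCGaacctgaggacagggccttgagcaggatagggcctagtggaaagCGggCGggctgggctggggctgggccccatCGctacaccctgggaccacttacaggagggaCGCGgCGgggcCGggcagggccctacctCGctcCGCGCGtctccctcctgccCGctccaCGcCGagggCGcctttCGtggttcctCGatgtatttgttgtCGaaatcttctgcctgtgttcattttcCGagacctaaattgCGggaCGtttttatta
The B2M stretch holds 4 CpG in 46 bases, the DLK1 stretch 20 CpG in 300 bases and the SYCP3 stretch 27 CpG in 300 bases.

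The libraries held between 2529729 and 4492751 MeDIP counts and between 8460076 and 12050554 RNA counts. The RNA matched the label of the line, since all 13 K562 markers, among them GATA1, KLF1 and the embryonic and fetal globins, had a median of at least 10 CPM (counts scaled to a common library size) over the 9 libraries. Of 12 markers of T cells, B cells, fibroblasts and epithelium, 8 had a median under 1 CPM. The exceptions above 10 CPM were CD3D at 23.1 CPM and EPCAM at 111 CPM, while the other T cell markers CD3E and CD2 were at 0.231 and 0 CPM. The part of other cell types in the results was not tested.

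The regions were mostly small and seldom lay on the start itself. Their median length was 294 bp, against 286 bp for the other autosomal regions, and they covered 1.92 Mb in all. Most regions (3674) served 1 gene start, 232 served 2 and 12 served 3 or more, so that neighbouring genes can share a region. In turn 3782 genes had 1 region, 193 had 2 and 2 had 3. Only 329 genes, 1.71% of all, had the start base inside a listed region. In the separate peak lists of the 9 MeDIP samples, 1103 starts lay under a peak in at least 1 sample and 135 under a peak in all 9. Every one of the 1060388 overlaps of a region with a sample's peaks had the region wholly inside a peak.

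The regions at gene starts held 3.57 CpG per 100 bp in the median, against 2.81 in the other regions, and 52.8% GC against 51.3%. A peak in all 9 samples covered 30.7% of them, against 24.7% of the others. In untreated cells their median level was 14.5 CPM per kb of region, close to the 13.98 CPM per kb of the rest. Over the 9 libraries the medians differed by 0.09 on the log2 scale (SD 0.0266), and regions at gene starts were the higher ones in 9 of 9 libraries. Per CpG the order turned: they had a log2 difference of -0.19 (SD 0.0337), below the others in 9 of 9 libraries. The comparison per CpG left out 41 regions at gene starts and 3708 others that hold no CpG at all, although they were listed. Among regions of like CpG density, those at gene starts also lay below the others from 2 CpG per 100 bp upwards, by -0.11 at 2 to under 3, -0.08 at 3 to under 4, -0.03 at 4 to under 6 and -0.16 at 6 or more. Under 2 CpG per 100 bp the difference was 0.08.

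Starts were sorted by the CpG content of their window in the reference. A start was CpG-rich when a 500-bp stretch of its window had an observed to expected CpG ratio above 0.75 and over 55% GC. It was CpG-poor when no stretch passed a ratio of 0.48, and intermediate otherwise. Of 12260 CpG-rich starts, 21.3% had a region within 1 kb and 1.26% had the start base inside one. Intermediate starts had regions most often, with 29.0% of 2942 within 1 kb and 4.18% over the start. CpG-poor starts had them least often, with 12.7% of 4027 within 1 kb and 1.27% over the start.

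Around CpG-rich starts the regions formed a lopsided dip. Between 1500 and 1400 bp upstream 9.96% of these genes had a region, falling to 3.87% at 500 to 400 bp upstream and 1.35% in the last 100 bp before the start. The lowest share, 1.07%, lay 300 to 400 bp downstream. The share then rose more slowly than it had fallen, to 2.91% at 1000 to 1100 bp and 6.35% at 1500 to 1600 bp. Intermediate starts had a shallower dip of 3.85% just upstream and 5.55% at 500 to 600 bp downstream. CpG-poor starts ran from 4.11% at 2000 to 1900 bp upstream to 1.22% in the last 100 bp before the start.

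The annotated 5′ end is not always the start in use. Of 18978 genes with a canonical transcript, 45.8% had its start at the same base and 16.7% had it over 1 kb away. Counted from canonical starts, the dip at CpG-rich genes was as deep, with 0.948% in the last 100 bp before the start and 9.76% at 2000 to 1900 bp upstream. Here and in all later values from canonical starts, the CpG class was that of the annotated start. It need not describe the canonical start.

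Among CpG-rich genes, RNA was lowest where a region lay on the start or within 250 bp of it, and the median was higher with each further step in distance. Levels between genes were compared as CPM per kb of exon. In untreated cells the 145 CpG-rich genes with a region over the start had a median of 0.0935 CPM per kb, and 35.2% of them reached 1 CPM. The 219 genes whose nearest region was 1 to 250 bp away had 0.129 CPM per kb. The median then rose to 1.66 CPM per kb at over 250 to 500 bp (492 genes), 3.12 at over 500 to 750 bp (799 genes) and 3.68 at over 750 to 1000 bp (849 genes). The 9281 CpG-rich genes with no region within 1 kb had 2.84 CPM per kb, below the most distant class, and 72.3% of them reached 1 CPM.

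On the scale of log2(CPM per kb + 0.5), which shrinks differences among low genes, CpG-rich genes with a covered start lay 2.52 below genes with no region (SD 0.068 over 9 libraries, 9 of 9 below). Genes whose regions all lay over 500 bp away lay 0.24 above them (SD 0.0247, 9 of 9 above). Pooled over the whole kilobase the difference was -0.23 (SD 0.0255), or -0.33 on log2(CPM + 0.5). That pooled sign depended on which regions were counted. With only the regions under a peak in at least 5 of 9 samples it was 0.25, in the other direction, against all 10162 genes without such a region. The covered starts kept their direction with canonical starts, at -2.57 (101 genes, against all 11684 other CpG-rich genes).

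Among intermediate genes with a region the lowest median was at 1 to 250 bp, 0.130 CPM per kb (129 genes). It was 0.353 CPM per kb where the start was covered (110 genes), 0.985 at over 750 to 1000 bp (165 genes) and 0.0638 with no region (1950 genes). Here genes with any region within 1 kb lay 0.62 above those without (SD 0.0644). CpG-poor genes differed little by distance, between 0.0693 and 0.143 CPM per kb, with 0.0447 where there was no region. Their difference with against without a region was 0.22 (SD 0.0436). Over all classes together the difference was 0.71 (SD 0.0273), or 1.04 on log2(CPM + 0.5), a value that mixes the classes in different shares. These values compare sets of genes within the same 9 libraries, and genes are not independent replicates.

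The 3 groups were close in the difference over all genes, at 0.70 ± 0.0494 in untreated, 0.71 ± 0.0108 in TALE and 0.71 ± 0.0163 in dCas9 libraries (SD, n = 3). For CpG-rich genes with regions over 500 bp away it was 0.22 ± 0.0240 in untreated, 0.26 ± 0.0184 in TALE and 0.25 ± 0.00959 in dCas9 libraries (SD, n = 3), so that TALE libraries overlapped untreated ones and the dCas9 libraries lay just above them. Untreated replicate 3 had the highest median of the 9 libraries for covered starts and for regions 1 to 250 bp away, in all 3 CpG classes. At covered CpG-rich starts it was -0.63, and the next highest library was at -0.78. Untreated replicate 3 was also the highest for genes with no region within 1 kb in 2 of the 3 classes. There it was at -0.66 in intermediate genes (next highest -0.90) and -0.74 in CpG-poor genes (next highest -0.99). In CpG-rich genes with no region it was at 1.74, and the highest library at 1.76. The higher medians were thus not particular to genes with a region at or near the start.

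RNA of CpG-rich genes differed by the side of the start on which the region lay. Genes with a region only upstream (1829) had a median of 3.71 CPM per kb in untreated cells, and 82.4% of them reached 1 CPM. Those with a region only downstream (449) had 0.173 CPM per kb, and 48.1% reached 1 CPM. The downstream medians were 0.142, 0.144 and 0.260 CPM per kb in untreated libraries 1 to 3, 0.112, 0.138 and 0.171 with TALE and 0.136, 0.161 and 0.185 with dCas9. The upstream medians of all 9 libraries lay between 3.55 and 3.85, so the sets did not overlap. The log2 difference was 2.67 (SD 0.101, 9 of 9 libraries above 0), or 4.15 without scaling to exon length.

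The difference was 2.61 when only regions over 500 and up to 1000 bp from the start were compared (1268 against 324 genes). From canonical starts it was 2.59. Regions downstream were denser in CpG, at 4.53 against 3.73 per 100 bp, but had lower MeDIP levels, at 12.7 against 16.7 CPM per kb. In intermediate genes the upstream set was higher by 1.00 (SD 0.0844, 382 against 268 genes). In CpG-poor genes the difference was 0.07 (SD 0.0668, 196 against 202 genes), about the size of its spread over libraries. From canonical starts it was larger in CpG-poor genes, at 0.23 (SD 0.0371, above 0 in 9 of 9 libraries, 226 against 172 genes).

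Many of the regions carried the same short word. The most common 14-letter word over all autosomal regions of up to 1000 bp, counted on both strands, was CCTGTAATCCCAGC (reverse GCTGGGATTACAGG). It is part of Alu, the most abundant interspersed repeat of primates, whose copies in the genome are normally methylated. The word was in 35.1% of regions at gene starts, 37.4% of the other regions and 25.4% of the 311 regions over a start. Within the middle 200 bases, which sets the lengths equal, these shares were 19.5%, 24.0% and 5.47%. None of the 3 printed stretches holds it.

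Regions at gene starts with the word had 18.2 CPM per kb in untreated cells, against 12.6 without it, at nearly equal CpG density (3.59 and 3.56 per 100 bp). A peak in all 9 samples covered 48.7% of those with the word and 20.9% of those without. Upstream regions of CpG-rich genes had it more often than downstream ones, in 40.6% of 1823 against 24.7% of 453. Of the whole windows 1 kb either side, 43.7% of those with a listed region held the word, against 16.2% of windows without one. The word was picked for being common in listed regions, so this comparison is not independent of that choice. The difference in RNA between the sides was also seen apart from the word. Among CpG-rich genes with no word in any region it was 2.44 (SD 0.0835, 1075 against 336 genes), and with the word it was 1.95 (754 against 113 genes). Where a region lay under a peak in all 9 samples it was 2.08 (676 against 108 genes). A match to the word describes the sequence and not what acts on it.

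The 10 genes of highest RNA among those with the start base inside a region of at least 3 CPM had untreated means from 190 to 1279 CPM. They were FADS1, a fatty acid desaturase, SSB, the La RNA-binding protein, TFPI, the inhibitor of the tissue factor pathway of clotting, U2SURP, a splicing factor, FDFT1, the squalene synthase, the RNA helicase DDX17, PDE4DIP, the Golgi stacking protein GORASP2, ECD and LARP4. In 0 of the 10 did the region hold the start of the canonical transcript, while it did in 95 of 188 genes (50.5%) with the annotated start inside a region of that level. Its nearest edge was 592 to 36501 bp from that start, and over 1 kb away in 8 of them. FADS1 led with 125 CPM per kb of exon in untreated cells. Its region at chr11:61596595-61596815 had 18, 13 and 15 MeDIP counts in the untreated libraries, 11, 11 and 26 with TALE and 18, 16 and 8 with dCas9, groups that overlap.

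Gene groups differed in how often their starts had a region, set against 20.7% of all genes. The germline list, genes of meiosis, piRNA and testis antigens, had a region at 32 of 57 starts (56.1%), and in 6 of them the start was covered. Zinc finger genes of chromosome 19, many of them repressors of transposable elements, had one at 96 of 240 (40.0%). Lymphoid and myeloid genes had 14 of 37 (37.8%), imprinted genes 14 of 39 (35.9%), HOX genes, the regulators of body axis, 13 of 39 (33.3%) and genes of MHC class I and interferon 10 of 31 (32.3%). Those 10 include B2M, whose region had counts only in the silenced groups. Ribosomal protein genes had 18 of 74 (24.3%) and tumour suppressors known for promoter methylation 11 of 48 (22.9%). The lowest shares were in clustered protocadherins (7 of 53), the DNA methylation machinery (2 of 20), erythroid genes (4 of 51, or 7.84%) and olfactory receptors (17 of 411, or 4.14%). Only 0.973% of olfactory receptor starts were CpG-rich, against 68.4% of germline starts and 63.8% of all starts. The lists did not rank alike by both shares, since 13.5% of lymphoid and myeloid starts and 91.9% of ribosomal protein starts were CpG-rich.

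Within the germline list the covered starts included SYCP3, whose sequence is given in part above, and REC8, the meiotic cohesin subunit. The SYCP3 region at chr12:102131935-102133736 spans the start from 486 bp upstream to 1315 bp downstream and holds 99 CpG. Its level was 24.3, 36.5 and 30.8 CPM in untreated libraries, 44.8, 28.7 and 25.3 CPM with TALE and 31.6, 28.8 and 28.1 CPM with dCas9. The groups overlap, and SYCP3 RNA was at 0.0396 CPM per kb. REC8 had a region of 1335 bp with 77 CpG over its start, at 13.4 ± 3.62 CPM (SD, n = 3) in untreated cells, with RNA at 0.119 CPM per kb. LDHC, the lactate dehydrogenase of sperm, had a region that ended 147 bp before the start, and RNA at 0.0193 CPM per kb.

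Other germline genes had a region near the start and high RNA. PRAME, a testis antigen often expressed in leukaemia, had 259 CPM per kb of RNA and a region at positions -1526 to -778 from the start at 48.6 ± 6.90 CPM (SD, n = 3). PRAME lies on chromosome 22 before the end of BCR, a stretch where MeDIP levels were raised at gene starts and elsewhere, as given below. GTSF1, a factor of the piRNA pathway, had 137 CPM per kb and a region at -705 to -336 at 2.95 ± 3.16 CPM (SD, n = 3). In all, 10 of the 32 germline genes with a region reached 1 CPM of RNA, as did 6 of the 25 without.

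Imprinted genes with a region were DLK1, HM13, NNAT, SLC22A18 and SNU13 among those of highest level, and 0 of 14 had the start base covered. The DLK1 region at chr14:101192265-101192673 had 11.4, 6.79 and 11.2 CPM in untreated libraries, 12.5, 11.4 and 9.34 CPM with TALE and 7.51, 8.83 and 8.20 CPM with dCas9. It lay at -964 to -556 from the canonical start, and DLK1 RNA was at 23.8 CPM per kb. NNAT, an imprinted brain gene, had a region of 34 CpG ending 148 bp before its start and RNA at 0.0607 CPM per kb.

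Among the 4 erythroid genes with a region were HBZ, the embryonic alpha-like globin, and ALAD and UROS, enzymes of haem synthesis. The RNA of all 4 reached 1 CPM, as did that of 44 of the 47 erythroid genes without a region. The medians were 6.29 CPM per kb with a region and 16.4 without. The nearest edge of the region lay 897 bp from the annotated start at HBZ, 931 bp at ALAD and 819 bp at UROS. HBZ had 406 CPM per kb of RNA and only 3 CpG in its region of 172 bp. Among lymphoid and myeloid genes, AZU1, a granule protein of neutrophils, had 10.8 ± 2.41 CPM (SD, n = 3) in a region at -559 to -272 and RNA at 0.153 CPM per kb. IKZF1, a regulator of blood lineages, had a region at -1247 to -770 and RNA at 9.96 CPM per kb. Among tumour suppressors CDH1, the epithelial cadherin, had a region at -973 to -234 at 10.9 ± 3.82 CPM (SD, n = 3) and RNA at 0.0229 CPM per kb, while VHL, DAPK1 and WT1 had regions upstream and RNA at 11.7, 1.77 and 6.31 CPM per kb. RB1 had counts in its region in 1 of 3 untreated libraries.

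Ribosomal protein genes with a region all reached 1 CPM (18 of 18), as did 55 of the 56 without one. Their median RNA was 98.8 CPM per kb with a region and 246 without. Of the 5 with the highest region levels, RPS9, RPS10, RPS24 and RPS27 had regions of 2016 to 2951 bp upstream of the start and RPL6 had one downstream. At RPS24 the region ran from -3261 to -529, at 26.0 CPM per kb of region. RNA counts of these genes may be split with their many processed copies, so their levels are uncertain. The HOX regions included 1 of 2580 bp shared by HOXB3 and HOXB6, with 96 CpG. HOXB8 had a region ending 93 bp before its start at 20.6 ± 1.01 CPM (SD, n = 3) and RNA at 6.53 CPM per kb. The 7 regions at protocadherins, adhesion proteins of neurons that cannot all be told apart by short reads, had low levels and 0 of them passed the filter on low counts.

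The 10 regions of highest level per kb belonged to 9 genes and ran from 66.6 to 693 CPM per kb. The region of OR2T1, an olfactory receptor, stood far above the rest with 193, 208 and 233 CPM in untreated libraries, 237, 208 and 244 CPM with TALE and 206, 221 and 212 CPM with dCas9, although it has only 3 CpG in 305 bp. The groups overlap, and OR2T1 RNA was detected in 2 of 9 libraries. Next were NUP214, a nuclear pore protein, at 129 CPM per kb and SERPIND1, the thrombin inhibitor heparin cofactor II, at 118 CPM per kb. The others were 2 regions at TOP3B, a topoisomerase, and 1 each at KISS1, a regulator of reproduction, TSSK2, a testis kinase, CCDC116, ZNF74 and TAS1R1, a taste receptor subunit. Of the 10 regions 6 lay on chromosome 22.

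On chromosome 22 up to the end of BCR, the gene joined to ABL1 in this line, the 32 regions at gene starts had a median of 40.9 CPM per kb in untreated cells. The 73 regions beyond BCR had 11.6 CPM per kb. Other regions showed the same step, from 36.1 to 13.7 CPM per kb. On chromosome 9 the 6 regions from ABL1 to 2 Mb beyond, among them that of NUP214, had 47.9 CPM per kb, against 14.02 in the other 171. Regions away from gene starts showed a smaller step there, with 22.1 CPM per kb (321 regions) against 12.4 (7572 regions). Without chromosome 22 the median difference between regions at gene starts and elsewhere was 0.09. The number of DNA copies was not measured here. Over the chromosomes, genes with a region made up between 15.8% (chromosome 13) and 26.0% (chromosome 7).

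The study asked whether the epigenetic editors changed methylation elsewhere than at B2M, and so the 4 contrasts were run over all regions and read at gene starts. Of the 3918 regions, 2394 (61.1%) passed the filter on low counts, against 54.0% of the others. With TALE against untreated, edgeR called 0 of 2394 at an adjusted p under 0.05 (0.0% of all 105652 regions tested), and 146 had an unadjusted p under 0.05, or 6.10% against 4.74% of all. With dCas9 against untreated, 1 was called (0.000947% of all), and 131 were under the unadjusted threshold (5.47% against 4.69%). TALE against dCas9 gave 0 calls among them (1 in the whole table, 0.000947%) and 104 unadjusted (4.34% against 4.47%). Silenced against untreated gave 0 calls (0.0% of all) and 144 unadjusted (6.02% against 4.88%). DESeq2 called 0 in each contrast, among these regions and in the whole table (0.0%). The median log2 fold change of the regions was 0.02 for TALE, 0.02 for dCas9 and 0.01 for silenced, against 0.00, 0.00 and -0.01 over all regions. The contrasts against untreated share their control libraries.

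The region called was that of B2M, chr15:45003405-45003721, which also lies over the start of PATL2 on the other strand. It had 0 counts in all 3 untreated libraries, 7, 10 and 9 with TALE and 14, 13 and 16 with dCas9, so that both silenced groups lay above untreated without overlap. In CPM, dCas9 (5.53, 3.38 and 6.91) and TALE (3.23, 3.93 and 2.47) overlapped. Mean levels were 3.21 ± 0.727 CPM (SD, n = 3) with TALE and 5.27 ± 1.78 CPM (SD, n = 3) with dCas9. Against a floor of 3 counts in each untreated library, they were at least 3.08-fold and 5.05-fold higher. The region was listed and passed the filter on low counts only through the silenced groups, with peaks in 2 of 9 samples (TALE replicate 2 and dCas9 replicate 3), so the test applies to a region that had to differ. The edgeR adjusted p was 0.0438 for dCas9, 0.522 for TALE and 0.0815 for silenced against untreated. The call for dCas9 did not hold without any 1 of untreated replicates 1, 2 and 3, TALE replicates 2 and 3 or dCas9 replicates 1 and 3, with adjusted p between 0.0296 and 0.463 over the 9 libraries left out in turn. For TALE against dCas9 the log2 difference was -0.70 with an adjusted p of 1.000 in edgeR.

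The regions of next smallest p in each contrast did not pass adjustment over the table. With TALE, BORCS5, a part of the BORC complex that places lysosomes, went from 4.98 ± 1.01 to 12.4 ± 2.49 CPM (SD, n = 3 each; edgeR adjusted p 0.772). With dCas9, the region at PSMB4, a proteasome subunit, had 9, 3 and 5 untreated counts and 16, 25 and 28 dCas9 counts (edgeR adjusted p 0.770). In silenced cells HAUS5, a subunit of the augmin complex of the spindle, went from 9.56 CPM to 4.36 CPM with TALE and 4.07 CPM with dCas9 (edgeR adjusted p 0.897). H4C3, a histone H4 gene, went from 11.96 CPM to 21.1 and 20.4 CPM (edgeR adjusted p 0.897). The others so named were MARVELD2, TMEM225B, PKIG, AGAP6 and LCN12, with edgeR adjusted p from 0.886 to 1.000.

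As a share of all MeDIP counts, the regions at gene starts took 2.61%, 2.56% and 2.62% in untreated libraries, 2.63%, 2.62% and 2.64% with TALE and 2.64%, 2.64% and 2.60% with dCas9. The TALE libraries all lay above the untreated ones, and dCas9 overlapped them. The lowest TALE library was at 2.6174% and the highest untreated one at 2.6163%. As a share of autosomal regions only, TALE replicate 2 (2.6928%) fell below untreated replicate 3 (2.6929%), with an exact permutation p of 0.2 for TALE against untreated. The mean difference of silenced and untreated was 0.0324 percentage points (exact two-sided permutation p = 0.0595), of TALE and untreated 0.0332 points (p = 0.1, the smallest possible) and of dCas9 and untreated 0.0317 points (p = 0.3, exact permutation). For regions within 500 bp of a start the silenced libraries all lay above the untreated ones, by 0.0162 points in the mean (exact permutation p = 0.0119, the smallest possible). Within 2 kb of a start the groups overlapped, at 0.0200 points (exact permutation p = 0.405), and over tested regions the difference within 1 kb was 0.0298 points (exact permutation p = 0.131). Without untreated replicate 2, the lowest library, the differences within 1 kb were 0.0168 points for TALE, 0.0153 for dCas9 and 0.0160 for silenced cells. Without the B2M region the difference for silenced cells was 0.0321 points. The regions lay inside peaks of these same samples, and more of the samples were silenced than untreated. The list may thus hold more regions that are higher in silenced cells. These p-values therefore do not come from regions chosen apart from the groups, and the part of the listing in the differences was not tested.

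In the RNA of the genes with a region, 2424 of 3743 passed the filter. Among them silenced against untreated gave 3 calls, all lower, TALE 2, dCas9 2 and TALE against dCas9 0. Over all 13786 genes tested the calls were 5 (0.0363%), 3 (0.0218%), 4 (0.029%) and 0 (0.0%), in the same order. Unadjusted, 147, 165, 126 and 148 of the genes with a region were under 0.05. Of all genes tested, 6.35%, 7.15%, 5.93% and 6.38% were under that threshold. DESeq2 called 8, 3, 6 and 0 of the genes with a region. Over all genes it called 36 (0.261%), 9 (0.0653%), 29 (0.215%) and 0 (0.0%). The 3 genes were B2M, GBP5, a guanylate-binding protein induced by interferon, and LVRN, an aminopeptidase listed in the table as AQPEP. They are named after their values were seen, as the rule for named genes covered calls of regions only. B2M counted as a gene with a region only through the silenced groups. Its RNA call is thus not that of a gene chosen apart from the treatment. The other calls were GBP5 and LVRN for silenced against untreated, and GBP5 alone for TALE and for dCas9. Bulk libraries cannot tell fewer cells with an RNA from less RNA per cell.

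B2M RNA was 6.89, 5.93 and 6.53 CPM in untreated libraries, 0.294, 0.539 and 0.370 CPM with TALE and 0.185, 0.311 and 0.297 CPM with dCas9. All silenced libraries lay below all untreated ones. The log2 fold change of silenced against untreated was -4.25 (SE 0.286, edgeR adjusted p 1.38e-07). These are few reads, 48 to 79 counts per untreated library and 2 to 7 per silenced one, and the table lists many more reads under a second entry, B2M_tomato. That entry was at 358.6, 384.9 and 393.2 CPM in untreated libraries, 12.5, 14.6 and 18.2 CPM with TALE and 18.998, 15.9 and 13.9 CPM with dCas9, lower in all 6 silenced libraries by -4.59 on the log2 scale (SE 0.120; adjusted p 2.67e-14 in edgeR). How reads common to B2M and the transgene were divided between the entries is not given in the sources used here, so the fold changes of endogenous and tagged B2M cannot be told apart. B2M_tomato is no gene of the annotation and was not counted among the 3. GBP5 RNA was 13.1, 19.8 and 20.9 CPM in untreated libraries, 4.61, 6.24 and 8.89 CPM with TALE and 7.14, 6.73 and 7.04 CPM with dCas9. It fell by 1.39 on the log2 scale (SE 0.184, edgeR adjusted p 0.00283), and the call was lost without untreated replicate 3. Its call with TALE alone (adjusted p 0.0214 in edgeR) was lost without untreated replicate 2 or 3 or TALE replicate 1 or 2. That with dCas9 alone (edgeR adjusted p 0.0352) held only without untreated replicate 1, TALE replicate 1 or TALE replicate 3 among the 9 libraries left out. Its region, 36 to 332 bp downstream of the start, had 5, 8 and 7 counts in untreated, 0, 3 and 4 in TALE and 4, 4 and 2 in dCas9 libraries, too few for the test. LVRN RNA was 8.64, 9.51 and 11.4 CPM in untreated libraries, 3.92, 4.16 and 5.28 CPM with TALE and 3.06, 4.97 and 5.25 CPM with dCas9. It fell by 1.14 (SE 0.191, edgeR adjusted p 0.0337), a call lost without untreated replicate 1, 2 or 3 or TALE replicate 2. Its region, at -591 to -312, had 5, 7 and 4 untreated counts, 2, 11 and 7 with TALE and 4, 10 and 9 with dCas9, groups that overlap and too few for the test.

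Changes of a region and of its gene's RNA could be paired 1724 times, over 1699 genes. Across these pairs, which share libraries, Pearson's r for silenced against untreated was -0.15 with B2M and 0.05 without it. It was -0.10 and 0.03 for TALE, -0.13 and 0.05 for dCas9 and 0.02 in both cases for TALE against dCas9, so the negative values rested on B2M. Pairs with an unadjusted p under 0.05 in both assays numbered 7 in silenced cells, 7 with TALE, 7 with dCas9 and 5 for TALE against dCas9. Region and RNA went opposite ways in 5, 3, 3 and 4 of them.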

How the data were processed

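MeDIP-seq and RNA-seq were analysed for 9 libraries each, in 3 groups of 3 (all K562). The labels do not say that replicates were separate cultures, so p-values measure only the spread between these samples. Per the submitters' processing notes, BWA 0.7.5, Picard, MACS2 and bedtools were used for MeDIP and STAR 2.3.0 for RNA, on hg19. The counter, gene annotation, strand setting and rule for listing regions are not given in the sources used here. The authors deposited whole-number counts per region and per gene, not normalized. The deposited peak lists give a score, a fold enrichment (ratio) and −log10 p and q per peak, per the file headers and values, and served only for overlap. All value columns were matched to samples (0 unmatched).

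Starts came from GENCODE 44 lifted to GRCh37. Regions and genes were fitted on their counts by edgeR 4.0.16 under R 4.3.3 (quasi-likelihood, TMM, filterByExpr with a minimum of 10 counts, 1 model of 9 libraries per assay, Benjamini-Hochberg over all regions or genes, threshold 0.05). DESeq2 1.42.0 was an alternative. CPM used TMM library sizes, and log2 values had a pseudocount of 0.5. Peaks were overlapped with bedtools 2.31.1. Scripts were tested on simulated data. No p-value is given for medians over sets of genes or regions. These are described by their spread over 9 libraries.

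Named genes were B2M, called regions or otherwise the 3 of smallest p per contrast, the 10 highest regions per kb (at least 200 bp), the 10 genes of highest RNA with the start inside a region of at least 3 CPM, and per list up to 5 by MeDIP level and 2 by RNA. The members and lists were chosen with earlier results of these data known. Canonical starts, CPM per kb of exon, the set of regions over 500 bp away, the comparison of sides and the word were chosen after seeing the data. Whether replicate numbers pair the samples was checked: correlations of same-numbered deviations ran from -0.005 to 0.004 (MeDIP) and -0.284 to 0.103 (RNA), and the numbers were not treated as pairs. Some genes and sequences are not reported here.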

Additional observations from a re-analysis of the deposited data

How the results depend on the processing

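The higher RNA of genes with a region, over all classes (1.04 on log2(CPM + 0.5); 1.04 to 1.05 without single libraries), turned to -0.21 among genes tested for RNA, -2.26 for regions over the start (against all other genes), -1.47 within 500 bp and -2.67 over the canonical start. For CpG-rich genes (-0.33; -0.34 to -0.33) it turned to 0.29 with peaks in at least 5 samples and 0.28 beyond 500 bp. For intermediate genes (1.42; 1.39 to 1.45) it turned to -0.10 among tested genes and -0.13 over canonical starts. The value over canonical starts rests on 49 genes, had an SD of 0.165 and was below 0 in only 4 of 9 libraries, so it is no clear change of sign. The cause was not tested. CpG-poor genes ranged from 0.58 to 0.62, the sides from 4.13 to 4.21 and the MeDIP level from 0.09 to 0.10 without single libraries. The level per CpG was -0.19, and in 3 libraries on their own (untreated 1, TALE 2 and dCas9 2) the level was 0.0421, 0.12 and 0.13. The dCas9 region call (1) became 0 with DESeq2, at least 10 counts in every library, a threshold of 0.01 and the replicate block, and 0 to 1 without single libraries. Silenced region calls (0) became 1 with no filter, and 0 to 1 without single libraries (1 without TALE replicate 3). RNA calls with TALE (2) became 8 with no filter (1 to 3 without single libraries). Those with dCas9 (2) became 6 with DESeq2, 9 with no filter and 1 with the replicate block (1 to 3), those of TALE against dCas9 (0) 1 with no filter (0 to 1, with 1 without dCas9 replicate 1), and those of silenced cells (3) 8 with DESeq2 and 11 with no filter (1 to 6). The share of counts ranged from 0.0168 to 0.0428 points for TALE and from 0.0153 to 0.0460 for dCas9, each minus untreated, without single libraries. TALE minus dCas9 (0.00157 points), was -0.000126 on autosomes and -0.0128 to 0.00881 without single libraries, and silenced minus untreated passed the threshold at 0.0162 within 500 bp and at 0.0384 without dCas9 replicate 3, and ranged from 0.0160 to 0.0420. At 0 to 16 counts per library, the depth limits what can be said of the B2M region. The other 236 values of this kind kept direction and side of the threshold, or stayed within 1.5 times. Replicate numbers were not treated as pairs, although the check of correlations cannot show that pairing is absent. Beyond the calls given here the block moved none by over 1.5 times.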
